A study of Mus musculus with 16 samples.

Results

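The Dox response of A-MYB-expressing mouse embryonic stem (ES) cells was described across all genes, by setting 2 libraries of cells given doxycycline (Dox) against 2 libraries of cells without it. These are 4 of the 16 samples of the series, taken by their labels. Of 23420 genes in the count tables, 14664 had enough reads to be tested. All cells were J1 ES cells of the 129S4/SvJae strain at passage 36, grown without feeder cells on gelatin with 2 inhibitors (PD0325901 and CHIR99021) and LIF, and harvested at day 3. Every group carried the transgene Tn(dCas9-VPR/RLTR10B2-gRNA-DsRed). Dox was used at 1 µg/ml in the Dox + A-MYB cells and left out in the A-MYB cells, and A-MYB expression was induced in both groups. Control cells (neither treatment) and Dox cells (Dox alone), 2 libraries each, entered the same fit and gave the comparison without A-MYB. The other 8 samples are chromatin libraries of spermatocytes at the pachytene stage, each from 1 male (C57BL/6J background, 8 to 12 weeks of age). They are wild type or carry the A-myb mutant genotype A-mybrepro9/repro9, and the H3K27ac peak lists of both genotypes, 2 each, are used at the end. All groups share this guide and activator, and a direct action of Dox cannot be told apart from that of the activator. The labels do not say which element Dox switches on, how A-MYB was expressed or whether the line is 1 clone, and they do not say that replicates came from separate cultures. The p-values thus measure the spread between these samples, which may be technical.

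The activator dCas9-VPR is a Cas9 that binds DNA without cutting it, fused to strong transcriptional activation domains, and the guide RNA named in the transgene is that for RLTR10B2, long terminal repeats that endogenous retroviruses left in the mouse genome. A-MYB, the product of Mybl1, is a transcription factor that male germ cells need in meiosis, where it switches on genes of the pachytene stage and of the piRNA pathway. ES cells in this medium hold a naive pluripotent state, run a high rate of glycolysis and keep most germline genes silent.

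Gene counts summed to 28254102 and 31168253 without Dox and to 30594074 and 30290623 with it. Levels are given as CPM, a gene's counts scaled to library size with TMM factors, and changes as edgeR log2 fold changes, Dox + A-MYB over A-MYB, with their standard error (SE). Both libraries of Dox + A-MYB cells had reads in more genes than the other 6, 17602 and 17554 against 16027 to 16512. Reads assigned to no gene made up 9.43% and 8.80%, against 7.28% to 8.34%. Their part in the results below was not tested. Mybl1 (gene ID 17864, chr1:9667407-9700439, GRCm38.p6), read as a check of the labels, was at 22.03 and 17.8 CPM in A-MYB cells and 19.9 and 16.6 CPM in Dox + A-MYB cells, while the 4 libraries without A-MYB ran from 6.92 to 11.0 CPM. Its change on Dox was -0.12 (SE 0.13, 95% interval -0.39 to 0.14, edgeR adjusted p = 0.427), and reads of the gene's own transcript cannot be told apart from those of an added copy.

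The summed level of 8 ES cell markers was 6476 and 6719 CPM in A-MYB cells and 4414 and 4896 CPM on Dox. Of those 8 genes, 7 fell and Pou5f1 did not pass. The defining spermatid markers Prm1, Prm2, Tnp1 and Acrv1 were at 0 in all 4 libraries. Summed spermatocyte markers ran from 32.3 to 40.0 CPM without Dox and from 37.0 to 46.4 CPM with it, so these groups overlapped. Endoderm markers summed to 6.14 and 6.58 CPM, then 8.82 and 8.13 CPM, with 1 of 3 tested markers higher, while a wider endoderm list of 20 genes had a lower sum on Dox (332.7 to 339.1 CPM against 367.3 to 373.2 CPM). Trophoblast markers had 2 higher and 1 lower of 3 tested. Blood cell markers were scarce, at 0.621 and 0.534 CPM and then 1.90 and 2.37 CPM. A wider list of 20 blood cell genes summed to 3.73 to 6.01 CPM without Dox and 12.41 to 13.65 CPM with it. Of its 6 tested genes, 2 were higher and 4 did not pass. Of 8 feeder fibroblast markers the sum was 4.21 CPM or below in all 4 libraries, and of 14 such genes it was 33.1 to 35.9 CPM and then 30.9 to 32.5 CPM, with 3 higher and 3 lower of 7 tested. The part of such cells in the results was not tested. In these bulk samples, fewer cells of a type and less RNA per cell cannot be told apart.

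Dox changed the level of most tested genes in A-MYB cells. Of the 14664 genes, 4174 were higher (28.5%) and 4463 lower (30.4%), 8637 in all (58.9%), at an adjusted p under 0.05. Both groups' libraries did not overlap in 8604 of these genes, and in 11447 of all genes tested. The sizes were unequal: 1784 genes rose at least 2-fold (12.2%) and 542 fell that far (3.70%). At 4-fold the counts were 787 higher (5.37%) and 73 lower, and at 8-fold 321 and 18. The median log2 change was 0.83 among the higher and -0.49 among the lower genes, and 0.01 over all genes tested. The direction of small changes depends on the scaling: with total counts as library sizes the median of all genes was 0.22, 6204 genes were higher and 2606 lower, and the share of higher genes among those called was 70.4% instead of 48.3%.

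Genes at a low level before Dox rose more often and genes at a high level fell more often. The genes were divided into 5 equal groups by their level in A-MYB cells. In the lowest group (up to 1.47 CPM) the median log2 change was 1.11, with 42.4% higher and 2.39% lower. In the highest group (from 88.4 CPM) it was -0.24, with 12.2% higher and 60.6% lower. Ranked by the control libraries, which are no part of the contrast, both ends gave 1.13 and -0.24. Without A-MYB the Dox medians were 0.10 and 0.02 in the lowest and highest groups ranked by the A-MYB libraries, and 0.21 and -0.01 in those ranked by the control libraries, which that contrast uses. With total counts as library sizes, the medians on Dox in A-MYB cells were 1.31 in the lowest group and -0.03 in the highest. In the fourth group the sign turned, from -0.10 to 0.11 (all ranked by the A-MYB libraries). The fall at high levels thus depended on the scaling. A gene silent in A-MYB cells could enter the test through its Dox libraries alone, so the counts of the lowest group are a description.

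**Figure D1:**
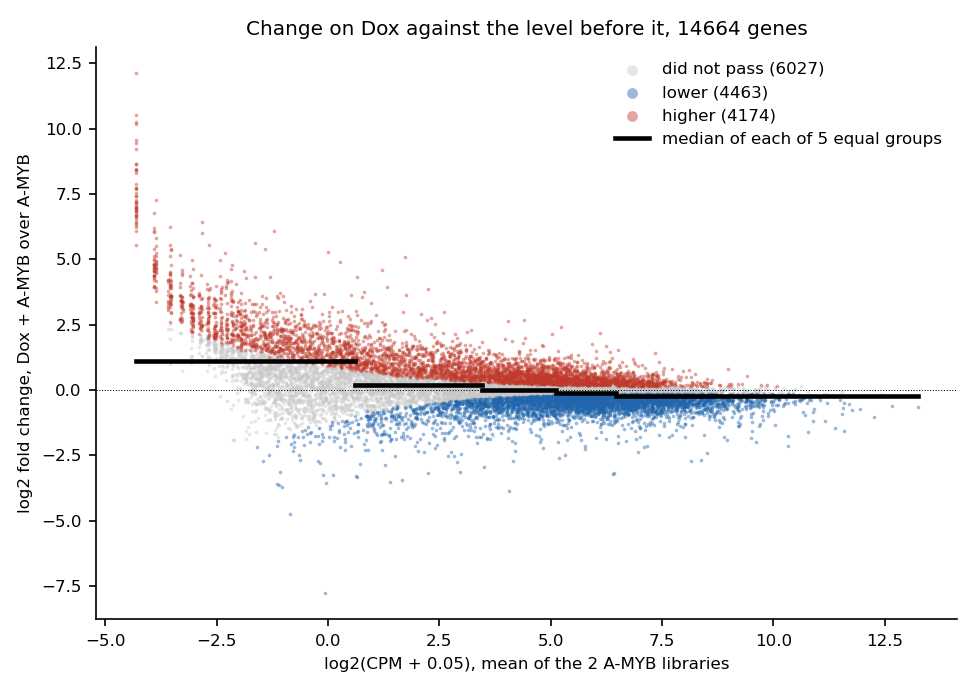
Each point is 1 of the 14664 tested genes, placed by its level in A-MYB cells (log2 of CPM plus 0.05, mean of 2 libraries) and its log2 fold change on Dox, and coloured by the edgeR call. The black lines, medians of 5 equal groups of genes, step down from 1.11 to -0.24.

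The 10 genes with the highest mean level among those called all fell. Eef1a1, which brings aminoacyl-tRNA to the ribosome, went from 9586 and 9871 CPM to 6064 and 6218 CPM, a log2 change of -0.66 (SE 0.05, edgeR adjusted p = 1.24e-10). Pkm, the pyruvate kinase of proliferating cells, went from 4832 and 5060 CPM to 2297 and 2490 CPM (-1.05). Hspa8, the constitutive Hsp70 chaperone, changed by -0.91, and the heat shock protein genes Hsp90aa1 and Hsp90ab1 by -0.74 and -0.59. Npm1 and Ncl, which encode abundant nucleolar proteins, stood at -0.77 and -0.68. The smallest decreases were in Eef2 (-0.54), the ferritin gene Ftl1 (-0.50) and the ribosomal protein gene Rpl4 (-0.38).

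The most strongly induced genes were silent or nearly so before Dox. All 44 tested genes without a read in either A-MYB library were higher. The filter favours this result, since such genes entered the test only through reads in other libraries. Slc13a3 (chr2:165405295-165473197), a sodium-coupled dicarboxylate carrier of kidney, had 0 reads in both A-MYB libraries and 685 and 576 reads, 20.0 and 17.1 CPM, on Dox. Set against a floor of 3 counts over the group, it was at least 355-fold higher. Ccl22, a chemokine, reached 5.72 and 6.44 CPM (at least 116-fold higher). Kcnt1, a sodium-activated potassium channel, reached 5.43 and 4.75 CPM (at least 97.3-fold). The serine protease inhibitor gene Serpina3c reached 4.38 and 5.28 CPM (at least 92.2-fold). Gm10471 reached 3.21 and 3.00 CPM (at least 59.3-fold) and is uncertain, since it lies among near-identical Speer-family copies. In the opposite direction Stc1, a secreted glycoprotein hormone, had 32 and 19 reads in the A-MYB libraries and none on Dox, at least 20.1-fold lower.

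Among genes with reads in both groups, Stac3 (chr10:127501617-127508823), an adaptor of excitation-contraction coupling in muscle, had the largest increase under the naming rule. Its level was 0.329 and 0.434 CPM in A-MYB cells and 23.7 and 28.5 CPM on Dox, a log2 change of 6.07 (SE 0.23, edgeR adjusted p = 3.70e-17). BC051019 (chr7:109712181-109723934) was at 3.32 and 3.24 CPM and then 103 and 118 CPM (5.07, SE 0.13, adjusted p = 8.97e-20). Nmnat3, an enzyme of NAD synthesis, went from 1.02 and 1.30 CPM to 33.6 and 37.1 CPM (4.91, SE 0.17). In all 3 both Dox libraries lay far above both libraries without it. Agpat9, a glycerol-3-phosphate acyltransferase, changed by 5.27, Sytl4, which docks secretory granules, by 5.62, and the glutamate receptor gene Gria4 by 5.40. Megf6 went from 2.12 and 2.40 CPM to 55.6 and 55.3 CPM (4.61, SE 0.13, adjusted p = 1.78e-19). Cdh24, a cadherin, had nearly equal replicates, 4.75 and 4.67 CPM before and 69.0 CPM in both libraries after (3.87, SE 0.11). The other 7 of the 15 named increases ran from 3.68 (Psd2, an Arf exchange factor) to 4.56 (Rapgef4, a cAMP-activated Rap exchange factor), with the axonemal dynein heavy chain gene Dnahc11 at 4.32, Cpxm2 at 4.31, Nrip3 at 3.94, the GABA receptor gene Gabrr1 at 3.77 and the oviduct glycoprotein gene Ovgp1 at 3.68.

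**Figure D2:**
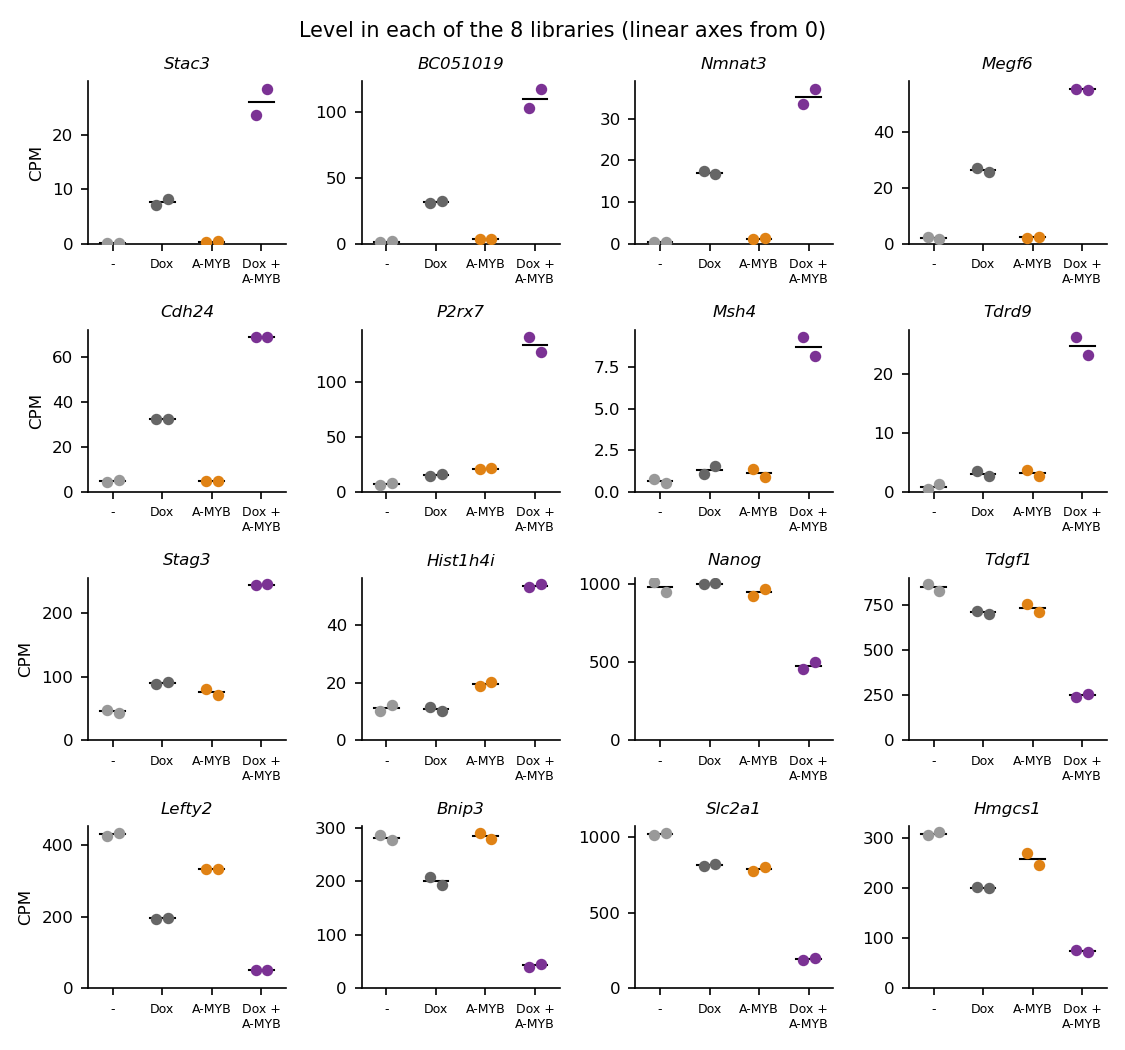
Level in CPM of 16 genes in each of the 8 libraries (points) with the mean of each group (lines), on linear axes from 0. Stac3, Nmnat3 and Megf6 rise with Dox in both settings, Msh4, Tdrd9 and Hist1h4i stand highest with Dox and A-MYB together, and Nanog and Bnip3 are lowest there.

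In some families of channels and other tissue genes more members rose than fell. Of 37 tested ligand-gated channel genes, 16 rose and 4 fell, with a median log2 change of 0.79. Their count of higher genes was 10 without A-MYB replicate 1. P2rx7 (chr5:122643927-122692336), an ATP-gated channel, went from 20.7 and 21.4 CPM to 141 and 128 CPM (2.67, SE 0.09, edgeR adjusted p = 8.96e-18). The NMDA receptor gene Grin1 moved the other way, from 50.5 and 51.0 CPM to 16.4 and 14.7 CPM (-1.70). Of 28 calcium and sodium channel genes, 12 rose and 1 fell (median 0.76), with the epithelial sodium channel gene Scnn1a at 3.58. Of 25 cytochrome P450 genes, 14 rose and 4 fell (median 0.92): Cyp1a1, which oxidises aromatic compounds, went from 1.46 and 1.84 CPM to 19.1 and 20.1 CPM (3.56), and Cyp2s1 fell from 40.2 and 42.7 CPM to 10.3 and 11.6 CPM (-1.92). Among 121 coiled-coil domain genes 60 rose and 15 fell (median 0.32), and among 18 axonemal dynein and cilia-associated genes 9 rose and 1 fell (median 0.88). Of 31 Hox genes, which pattern the body axis, 13 rose and 2 fell (median 0.54). Olfactory receptors stayed silent as a family: 1024 of 1122 genes had no read in any library, and 7 could be tested, of which 3 were higher. Other families were more even: of 42 potassium channel genes 14 rose and 9 fell (median 0.45), of 22 claudin and keratin genes 7 rose and 9 fell, and of 18 serpin genes 5 rose and 6 fell. Over all genes the median was 0.01, with 28.5% higher and 30.4% lower. Most members of the channel, P450, cilia and Hox families lay in the lowest 2 level groups, where 42.4% and 34.2% of all genes rose. These were 30 of the 37 ligand-gated channel genes, 24 of the 28 calcium and sodium channel genes, 21 of the 25 P450 genes, 15 of the 18 cilia genes and 30 of the 31 Hox genes. The shares of higher genes among ligand-gated channels (43.2%), calcium and sodium channels (42.9%) and Hox genes (41.9%) are near those of genes at such levels.

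Many histone and collagen chain genes rose on Dox in A-MYB cells. Of 51 tested replication-dependent histone genes, whose copies share near-identical sequence so that single members are uncertain, 30 rose and none fell. Every count of 0 given for a list or family, here and below, comes from edgeR and was also 0 at an unadjusted p under 0.05 and by DESeq2. The family's median was 1.28 (1.49 with total counts, with 35 higher). Hist1h4i, a histone H4 copy (chr13:22040960-22041362), went from 18.7 and 20.2 CPM to 53.4 and 54.2 CPM (1.47, SE 0.10, adjusted p = 6.96e-12). Hist2h2bb changed by 2.26 and the linker histone gene Hist1h1d by 2.04. By level 47 of the 51 lay in the lowest 2 of the 5 level groups. The summed level of the family was 191.9 and 208.8 CPM before and 428.9 and 449.4 CPM after Dox. Of 29 collagen chain genes 14 rose and 6 fell (median 0.79), and 7 rose without A-MYB replicate 2 and 9 without A-MYB replicate 1 or Dox + A-MYB replicate 2. Col11a2, a chain of cartilage collagen, rose by 2.29, while Col4a1, the basement membrane chain with the higher level, fell from 15.0 and 14.6 CPM to 5.23 and 5.81 CPM (-1.42). Summed, the collagen chain genes were lower on Dox, at 176.4 to 187.9 CPM against 202.4 to 205.7 CPM, although more members rose than fell. By level 24 of the 29 lay in the lowest 2 level groups, where 42.4% and 34.2% of all genes rose. The share of collagen chain genes that rose was 48.3%.

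Germline genes, some of which A-MYB switches on in spermatocytes, were higher in part. Of 12 tested genes of the synaptonemal complex and meiotic cohesin, which hold paired chromosomes together, 9 rose and 1 fell (median 0.76); 5 rose without A-MYB replicate 2. Stag3 (chr5:138272514-138312397), the meiosis-specific cohesin subunit, went from 80.9 and 71.0 CPM to 244 and 245 CPM (1.69, SE 0.07, edgeR adjusted p = 3.66e-16). Both Dox libraries lay above both others. Rec8, the meiotic kleisin, changed by 0.74 and the central element gene Syce1 by 0.74, while Syce2, also of the central element, fell (-0.56). Sycp1, the transverse filament, rose by 1.10, Sycp3, of the axis, by 0.77, and Hormad1 stood at -0.06 (adjusted p = 0.744). Summed over the list, levels ran from 304.1 to 320.8 CPM before and from 496.8 to 498.9 CPM after Dox. Such sums rest on the few members of high level, and they were not higher in every germline list. The piRNA list went from 206.2 to 206.6 CPM up to 330.9 to 336.2 CPM. Recombination genes summed to 320.1 to 363.9 CPM and then 269.2 to 303 CPM. Germ cell regulators went down from 529.5 to 554.3 CPM to 464.7 to 470.4 CPM, and the methylation-silenced list from 1597 to 1602 CPM to 1464 to 1494 CPM. In these last 3 lists both Dox libraries thus lay below both others in sum, although more members rose than fell.

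Of 15 meiotic recombination genes 7 rose and 3 fell (median 0.39). Msh4, of the crossover complex MutSgamma, went from 1.35 and 0.868 CPM to 9.32 and 8.16 CPM (2.98, SE 0.28, edgeR adjusted p = 1.82e-09). Its partner Msh5 changed by 2.35. Members that fell were the mismatch repair gene Mlh3 (-0.50), the strand exchange cofactor Mnd1 (-0.66) and Brca2 (-0.56). Among 17 piRNA pathway genes, which silence transposons in the germline, 9 rose and 1 fell (median 0.64). Tdrd9, a helicase of the piRNA pathway, went from 3.69 and 2.67 CPM to 26.3 and 23.3 CPM (2.97, SE 0.21). The helicase gene Mov10l1 went from 9.64 and 11.1 CPM to 32.5 and 32.0 CPM (1.63). Piwil2, which binds piRNAs, went from 17.0 and 18.8 CPM to 40.8 and 41.1 CPM (1.19), and Piwil1, its pachytene relative, stood at 0.40 (adjusted p = 0.373).

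Of 17 germ cell regulators 11 rose and 3 fell (median 0.92). Kctd19, a meiotic partner of ZFP541, went from 2.01 and 1.77 CPM to 20.2 and 18.2 CPM (3.35), and Taf7l, a germ cell subunit of the general transcription machinery, from 7.20 and 7.55 CPM to 27.2 and 31.4 CPM (1.99). Sohlh1, a regulator of spermatogonial differentiation, rose from 0.0365 and 0.267 CPM to 6.13 and 5.99 CPM (5.24). Sohlh1 lies within 100 kb of the strongly induced Kcnt1, and Kctd19 within 100 kb of Lrrc36 (4.64). The part of position in their rise was not tested. Kit, the receptor for stem cell factor, which ES cells express too, fell from 247 and 236 CPM to 95.4 and 89.3 CPM (-1.39). Dazl, an RNA-binding protein of germ cells, fell by 0.42 (log2). A list of 20 germline genes that DNA methylation keeps silent had 12 higher and 3 lower members (median 0.67), with the sperm membrane gene Tex101 at 2.50. Of 20 spermatid and sperm genes only 6 had enough reads to be tested, of which 2 rose and 1 fell. Of 17 genes of 2-cell-like cells 10 rose and none fell (median 0.66), and 6 rose without A-MYB replicate 1 or Dox + A-MYB replicate 1. Tmem92 rose by 1.55 and Zscan4d by 0.69, and reads of the Zscan4 and Usp17l copies cannot be assigned with certainty. These germline lists kept a positive median with total counts (0.60 to 1.13). Of the 85 distinct genes tested in these 6 lists (without the spermatid list), 60 lay in the lowest 2 level groups, where 42.4% and 34.2% of all genes rose, and the part of the level in their rise was not tested.

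MYB proteins bind the core TAACNG or CAACNG, and this was searched on both strands in the 250 bases before each RefSeq start (GRCm38.p6). Of 32851 promoters, 43.1% hold a match. For the synaptonemal and cohesin list it was 12 of 15 starts (80%, 9 of 12 genes), for recombination 5 of 14 starts (35.7%, with 12 of 15 genes in the table) and for the piRNA list 11 of 23 starts (47.8%, with 16 of 17 genes in the table). The 90 bases around the match nearest to the start are shown for 3 meiotic genes that rose, 5′ to 3′ on the gene's strand, with the matches in capitals. They are from Stag3 (plus strand, chr5:138280396-138280485), Sycp1 (minus strand, chr3:102936116-102936205) and Msh4 (minus strand, chr3:153904905-153904994), and end 23, 15 and 13 bases before the start. In Sycp1, 2 matches on opposite strands overlap.
Stag3: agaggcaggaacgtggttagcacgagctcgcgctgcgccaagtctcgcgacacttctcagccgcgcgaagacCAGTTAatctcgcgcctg
Sycp1: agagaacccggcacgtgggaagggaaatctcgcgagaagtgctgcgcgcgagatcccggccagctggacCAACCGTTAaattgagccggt
Msh4: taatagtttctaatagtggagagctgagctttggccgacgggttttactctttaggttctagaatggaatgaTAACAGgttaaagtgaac
A match is a string of letters and not a measured binding site. The 3 genes shown were picked from members that rose and hold a match. In the synaptonemal and cohesin list, Syce1, Tex12 and Rec8 rose without a match. Syce2 has a match and fell, and Hormad1 and Syce3 have matches and did not pass. Hormad1 and Syce2 each enter the count of starts through overlapping stretches. Whether a match goes with a rise was not tested. For Tdrd9 no match lies in the searched window.

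**Figure D3:**
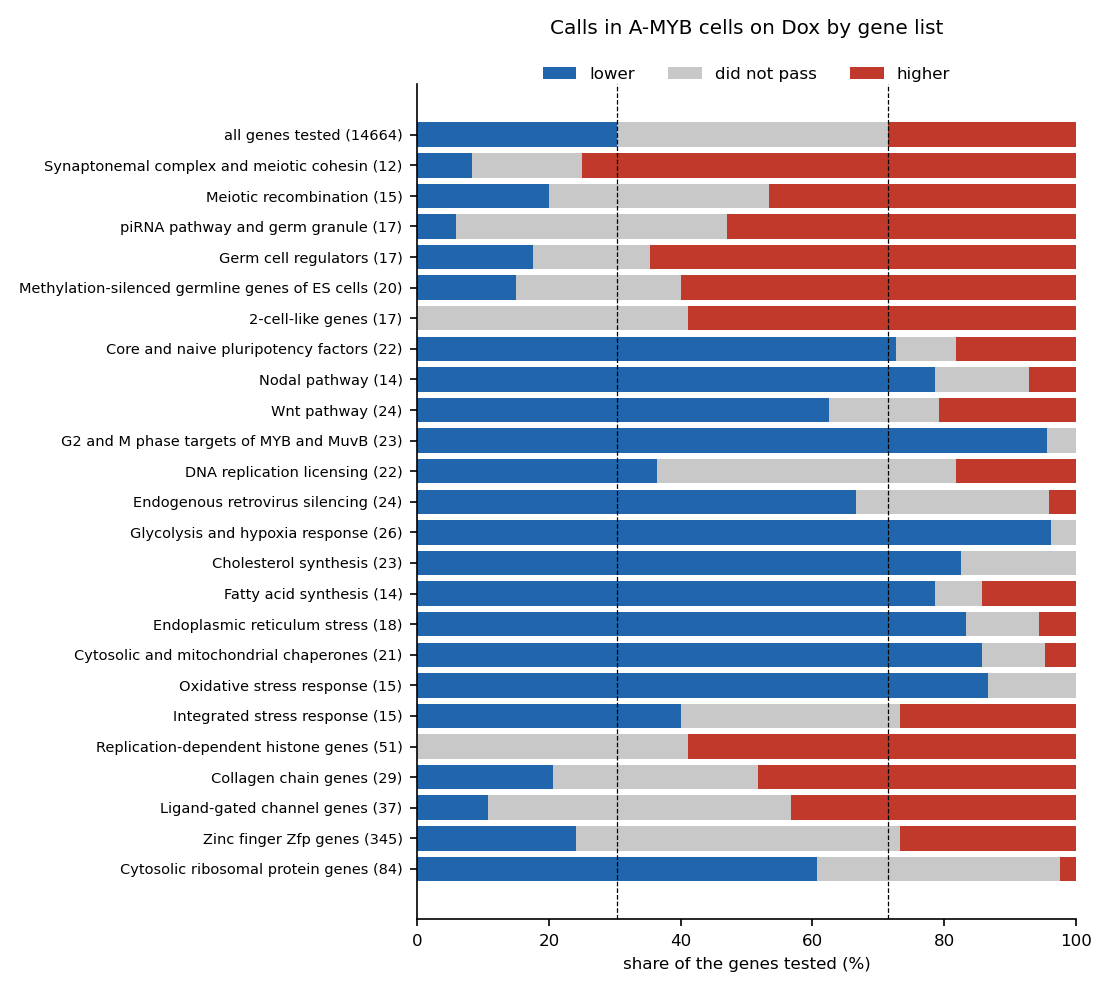
Bars give the share of tested genes that were lower (blue), did not pass (grey) or were higher (red) on Dox in A-MYB cells for 19 lists and 5 families, with the number of genes in brackets. Dashed lines mark the shares over all 14664 genes, 30.4% lower and 28.5% higher; germline lists and histone genes lie on the higher side, glycolysis, cholesterol and G2 and M phase genes on the lower side.

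Most pluripotency factors fell. Of 22 genes, 16 fell, 4 rose and 2 did not pass (median -0.50; -0.29 with total counts), and 17 of the 22 lay in the highest level group. Nanog (chr6:122707489-122714633), a core factor of the naive state, went from 928 and 972 CPM to 459 and 499 CPM (-0.99, SE 0.06, edgeR adjusted p = 2.82e-13). Klf2, a target of the naive network, changed by -1.09, and Sox2, the partner of Oct4, by -0.88. Tdgf1, a Nodal co-receptor (chr9:110939608-110946158), went from 753 and 707 CPM to 240 and 256 CPM (-1.56, SE 0.06). Neither gene had overlapping groups. Pou5f1, which encodes Oct4, was at 1120 and 1286 CPM and 1145 and 1378 CPM (0.07, adjusted p = 0.509); it was chosen after its values were seen, and its groups overlapped. Dppa3, a gene of the early embryo and germ cells that blocks maintenance of DNA methylation, rose from 24.4 and 25.4 CPM to 66.8 and 77.4 CPM (1.53). The other members that rose were Dppa4 (0.33), Utf1 (0.30) and Lin28a (0.30).

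Most genes of the Nodal signal fell as well, and so did most of the Wnt signal with TMM scaling. Both signals act on ES cells. Of 14 Nodal pathway genes 11 fell and 1 rose (median -0.64). Lefty2, a Nodal inhibitor and Nodal target (chr1:180893108-180899107), had the smallest p of all genes tested: 334 and 335 CPM became 52.2 and 51.2 CPM (-2.69, SE 0.06, edgeR adjusted p = 1.68e-21). Lefty1 went from 37.4 and 42.5 CPM to 6.31 and 7.95 CPM (-2.49). The ligand Nodal itself changed by -0.57 and the effector Smad3 by -0.84, while the cofactor Foxh1 rose by 0.70. Of 24 Wnt pathway genes 15 fell and 5 rose (median -0.57). The antagonist Sfrp5 fell from 2.74 and 3.47 CPM to 0.292 and 0.267 CPM (-3.46), and the target genes Sp5 and Axin2 by 1.58 and 0.59 (log2). Ctnnb1, which encodes beta-catenin, changed by -0.55. The members that rose were the ligand genes Wnt3 (2.54), Wnt4 (3.54), Wnt7b (2.89) and Wnt8a (2.09) and the antagonist Dkk1 (2.12). Of 12 genes of the LIF receptor and STAT3 pathway 7 fell and 2 rose (median -0.36), with the feedback inhibitor Socs3 at -1.13. With total counts 11 Nodal genes fell and 2 rose, and 12 Wnt genes fell and 7 rose. In the LIF list 6 then fell and 3 rose. The highest level group, where 60.6% of all genes fell, held 5 of the 14 Nodal and 4 of the 24 Wnt genes. It held 6 of the 12 LIF pathway genes, of which 58.3% fell. Over all genes 30.4% fell. Of 15 endoderm genes 7 rose (46.7%) and 3 fell, with the adaptor gene Dab2 at 2.42 and Hnf4a at 1.04. By level 12 of the 15 lay in the lowest 2 level groups, where 42.4% and 34.2% of all genes rose. The share of the list is near these.

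Genes of glycolysis and of the hypoxia response fell almost without exception. Of 26 genes, 25 fell and 1 did not pass, with a median log2 change of -1.59 (-1.38 and still 25 lower with total counts). By level 18 of them lay in the highest level group, whose median was -0.24. The exception was Car9 (1.15, edgeR adjusted p = 0.2). Bnip3 (chr7:138890836-138909506), a mitophagy receptor induced by HIF, the hypoxia-inducible factor, went from 290.5 and 279 CPM to 40.7 and 45.7 CPM (-2.72, SE 0.07, adjusted p = 1.80e-20). Ndrg1 (chr15:66929318-66969641), another HIF target, went from 84.4 and 84.5 CPM to 7.89 and 10.2 CPM (-3.23, SE 0.10). Slc2a1 (chr4:119108745-119137330), the glucose transporter GLUT1, went from 774 and 798 CPM to 190.1 and 202 CPM (-2.002, SE 0.06, adjusted p = 1.82e-19). In each of these genes both Dox libraries lay far below both libraries without it. Pfkp, a phosphofructokinase, went from 511 and 482 CPM to 128 and 134 CPM (-1.93).

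Genes for each step from hexokinase to lactate dehydrogenase fell. Hexokinase Hk2 changed by -1.78, glucose-6-phosphate isomerase Gpi1 by -1.35, aldolase Aldoa by -1.46, triosephosphate isomerase Tpi1 by -1.76 and Gapdh by -1.12. Downstream, phosphoglycerate kinase Pgk1 changed by -1.62, Pgam1 by -1.14, Pkm by -1.05 and lactate dehydrogenase Ldha by -1.56. Enolase Eno1 (-1.86) is uncertain, since near-identical copies exist. Pdk1, which keeps pyruvate out of mitochondria, changed by -1.39. HIF targets outside glycolysis fell too: the angiogenic factor Vegfa by 2.25, the HIF prolyl hydroxylase Egln3 by 2.22 and the oxidase Ero1l by 2.17 (log2).

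The hypoxia response core, ACGTG or GCGTG on either strand, was searched in the same 250 bases. It occurs in 38.6% of the 32851 promoters and in 26 of 33 starts of the glycolysis and hypoxia list (78.8%; 21 of the 23 genes present in the RefSeq table). The stretches below end before the start of genes that fell, 18 bases before it in Bnip3 (minus strand, chr7:138909525-138909614), 19 in Slc2a1 (plus strand, chr4:119108636-119108725), 6 in Pfkp (minus strand, chr13:6648778-6648867) and 17 in Ldha (plus strand, chr7:46845697-46845786). Bnip3, Slc2a1 and Pfkp have the smallest p of the list with an entry, and Ldha was added after its values were seen. Capitals mark every match, and matches on opposite strands can overlap, as in CACGTG.
Bnip3: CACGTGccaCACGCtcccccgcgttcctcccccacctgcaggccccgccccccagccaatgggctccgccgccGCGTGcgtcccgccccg
Slc2a1: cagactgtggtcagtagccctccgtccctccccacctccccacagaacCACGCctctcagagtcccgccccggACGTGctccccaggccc
Pfkp: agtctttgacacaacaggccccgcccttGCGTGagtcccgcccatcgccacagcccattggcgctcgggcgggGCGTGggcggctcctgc
Ldha: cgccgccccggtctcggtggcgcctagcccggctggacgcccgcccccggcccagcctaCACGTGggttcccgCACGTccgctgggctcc
All 4 stretches hold at least 2 matches, and whether HIF occupies them in these cells was not measured. Tpi1 and Gpi1 fell without a match, and Car9, which did not pass, has a match. Eno1 and Aldoa each enter the count of starts through overlapping stretches. Whether a match goes with a fall was not tested.

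Sterol and fatty acid synthesis fell beside glycolysis. Of 23 cholesterol genes 19 fell and none rose (median -1.05; -0.84 and 16 lower with total counts; 10 of the 23 in the highest level group). Hmgcs1, at the entry of the mevalonate pathway, went from 269.9 and 245 CPM to 76.7 and 72.6 CPM (-1.79, SE 0.06, edgeR adjusted p = 8.49e-18). Both Dox libraries lay below both others. Insig1, which retains the sterol sensor in the endoplasmic reticulum, changed by -1.74, and Srebf2, the transcription factor of the pathway, by -0.76. Among members that did not pass, Mvk stood at -0.22, Pmvk at -0.06 and Ebp at -0.13. Of 14 fatty acid genes 11 fell and 2 rose (median -0.75), and with total counts 10 fell and 2 rose (median -0.545). The highest level group, where 60.6% of all genes fell, held 8 of the 14. The desaturase gene Scd2 went from 1308 and 1257 CPM to 317 and 272 CPM (-2.12), and fatty acid synthase, Fasn, from 608 and 578 CPM to 259 and 244 CPM (-1.24). Those that rose were Thrsp (0.94) and the acetyl-CoA carboxylase gene Acacb (0.51).

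**Figure D4:**
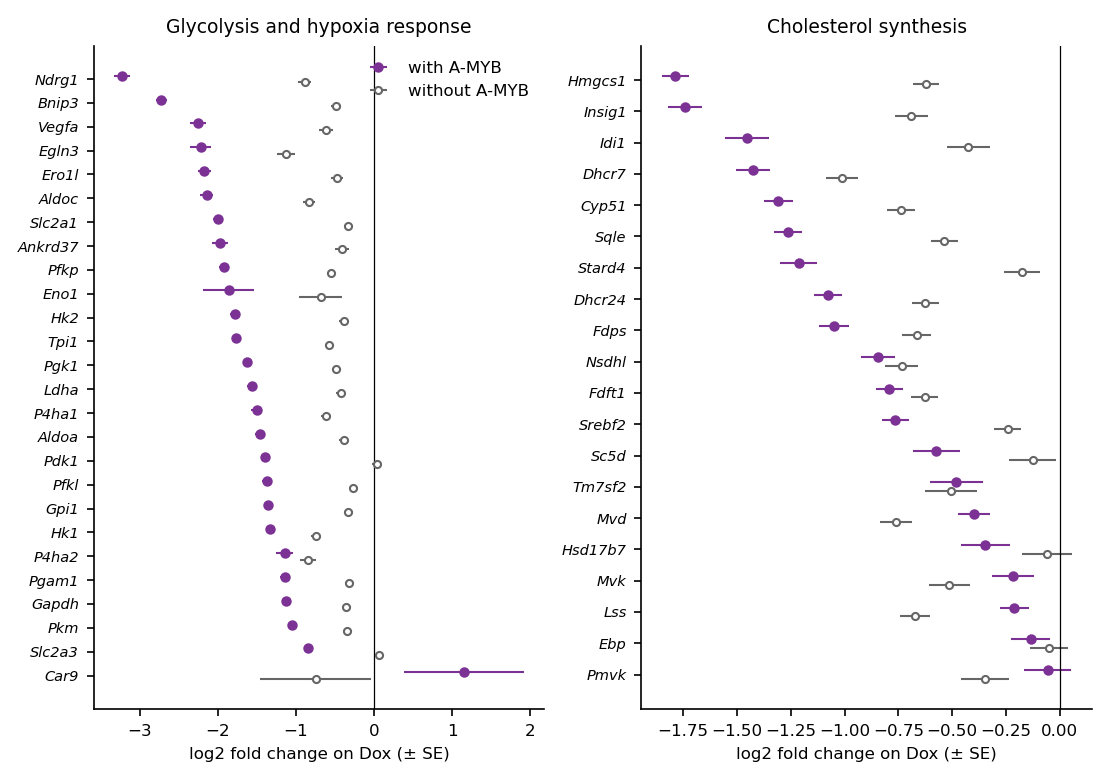
Log2 fold change on Dox ± SE for the tested members of the glycolysis and hypoxia list (left) and most of those of the cholesterol list (right), in cells with A-MYB (filled) and without it (open). In the left panel all filled points except Car9 lie at or below -0.85; in the right panel Hmgcs1 stands at -1.79.

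Among growth genes, those of mitosis fell. Of 23 G2 and M phase genes, the set that MYB proteins drive with the MuvB complex in cycling cells, 22 fell and Mybl2 (B-MYB) stood at 0.07 (edgeR adjusted p = 0.281). The median was -0.46, and with total counts it was -0.25 with 13 lower and 1 higher. By level 22 of the 23 lay in the highest level group, where 60.6% of all genes fell with a median of -0.24. Kif23, a kinesin of cytokinesis, fell from 239.5 and 223 CPM to 101 and 97.5 CPM (-1.22), the cyclin gene Ccnb1 by 0.80 and the kinase gene Cdk1 by 0.77 (log2). DNA replication licensing genes were divided, 4 higher and 8 lower of 22 (median -0.07, which turns positive with total counts). Cytosolic ribosomal protein genes changed by small amounts: 51 of 84 fell and 2 rose (median -0.18), and with total counts 20 fell and 11 rose with a median of 0.03. Of the 84, 79 lay in the highest level group. The family's share of lower genes (60.7%) is near that of the group (60.6%).

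Protein folding genes fell. Of 21 cytosolic and mitochondrial chaperones 18 fell and 1 rose (median -0.53), with the mitochondrial chaperonin gene Hspd1 at -1.37. Of 18 endoplasmic reticulum stress genes 15 fell and 1 rose (median -0.65): Hsp90b1, which encodes GRP94, went from 613 and 571 CPM to 232 and 226 CPM (-1.37), and Hspa5, which encodes BiP, changed by -1.02. Of 15 oxidative stress genes 13 fell (median -0.72), with the quinone reductase gene Nqo1 at -1.01. The integrated stress response was split, 4 higher and 6 lower of 15. Its regulators Atf4 and Ddit3 rose (0.60 and 0.92), while Stc2 and Nupr1 fell (-2.02 and -1.79). All medians of this paragraph kept their sign with total counts. By level 20 of the 21 chaperones lay in the highest level group, where 60.6% of all genes fell with a median of -0.24. That group held 10 of the 18 endoplasmic reticulum stress genes and 7 of the 15 oxidative stress genes.

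Genes that silence endogenous retroviruses, the class of element the guide is aimed at, fell in part. Of 24, 16 fell, 1 rose and 7 did not pass (66.7% lower, median -0.30), and with total counts 9 fell and 6 rose (median -0.09). Of these genes 20 lay in the highest level group, where 60.6% of all genes fell with a median of -0.24, which is near the share of the list. Uhrf1, which guides maintenance DNA methylation, fell from 933 and 946 CPM to 501 and 519 CPM (-0.88, SE 0.05, edgeR adjusted p = 5.61e-13). Cbx3, a heterochromatin protein, changed by -0.86, the corepressor Trim28 by -0.38 and the histone methyltransferase Setdb1 by -0.33. Of the DNA demethylases, Tet1 fell from 450 and 383 CPM to 236 and 202 CPM (-0.93) and Tet2 by 0.41 (log2). Zinc finger Zfp genes, many of which encode KRAB repressors of such elements, were balanced: 92 rose and 83 fell of 345, with a median of -0.02 that is 0.19 with total counts.

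The 15 named decreases include genes of secreted and matrix proteins. Loxl2 (chr14:69608692-69695834), a collagen cross-linking oxidase, fell from 20.3 and 13.3 CPM to 1.46 and 0.860 CPM (-3.85, SE 0.22, edgeR adjusted p = 3.44e-11). A2m, a protease inhibitor of plasma, fell from 91.4 and 80.2 CPM to 8.65 and 10.2 CPM (-3.19, SE 0.09). Igfbp5, an IGF-binding protein, fell from 2.41 and 2.77 CPM to 0.263 and 0.178 CPM (-3.53). The growth factor Fgf10 fell from 19.6 and 15.9 CPM to 2.60 and 2.82 CPM (-2.71) and the early response gene Ier3 from 11.4 and 11.2 CPM to 1.37 and 1.51 CPM (-2.96). The other named decreases were Fam183b (-3.30), Nxph4 (-3.19), Aoc3 (-3.14), the hormone gene Adm2 (-2.87), the glycogen phosphatase subunit gene Ppp1r3g (-2.83) and Mir703 (-2.74). The counts of Mir703 are uncertain, since reads of an overlapping transcript could be assigned to a microRNA symbol.

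The Dox response without A-MYB, from control and Dox libraries that are no part of the contrast above, had fewer calls: 2626 genes were higher (17.9%) and 2091 lower (14.3%). The difference of both Dox effects, tested as an interaction in the same fit, was positive for 2410 genes (16.4%) and negative for 3586 (24.5%). With total counts as library sizes these were 3746 and 2291. Of the 4174 genes higher with A-MYB, 1965 had a positive interaction, 28 a negative one and 2181 did not pass. Of the 4463 lower genes, 2916 had a negative interaction, 35 a positive one and 1512 did not pass. Opposite calls with a passing interaction were seen in 160 genes, higher with A-MYB and lower without, and in 665 genes, lower with A-MYB and higher without.

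Some of the most strongly induced genes rose in both settings. Stac3 changed by 6.07 with A-MYB and 5.86 without it (edgeR interaction adjusted p = 0.853), and Nmnat3 by 4.91 and 5.39 (interaction adjusted p = 0.303). P2rx7 rose more with A-MYB, 2.67 against 1.19 (interaction 1.48, adjusted p = 4.90e-08). Kcnt1 had 0.878 and 1.03 CPM on Dox alone and 5.43 and 4.75 CPM with both (interaction adjusted p = 3.58e-05). Tdrd9 and Msh4 also rose more, with interactions of 1.16 (adjusted p = 0.0228) and 2.01 (adjusted p = 0.00133). Sycp1 rose less, 1.10 against 2.78 (interaction -1.68, adjusted p = 0.0189). Over the germline lists the interaction passed in both directions: 3 positive and 3 negative of 12 synaptonemal genes, 2 and 3 of 15 recombination genes, 3 and 0 of 17 piRNA genes, 4 and 3 of 17 germ cell regulators, and 4 and 7 of 20 methylation-silenced germline genes.

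Histone and collagen genes moved apart between the settings. Hist1h4i changed by 1.47 with A-MYB and -0.05 without (interaction 1.51, edgeR adjusted p = 5.26e-08). The interaction was positive for 25 of 51 histone genes and negative for none, and 27 and none with total counts. Collagen genes had a median of 0.79 with A-MYB and -0.53 without, with 9 positive and 1 negative interactions of 29. Ligand-gated channel genes had 13 positive and 3 negative interactions of 37.

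On the lower side, glycolysis genes fell further with A-MYB: the interaction was negative for 24 of 26, and for 23 with total counts. Bnip3 changed by -2.72 against -0.49 (interaction -2.23, edgeR adjusted p = 5.88e-15), and Slc2a1 by -2.002 against -0.33 (interaction -1.67, adjusted p = 7.52e-14). Pdk1 fell with A-MYB and stood at 0.03 without it (interaction -1.43). In the cholesterol list 13 of 23 interactions were negative and 2 positive (10 and 4 with total counts). Of 22 pluripotency genes 16 had a negative interaction and 1 a positive one (15 and 3 with total counts). Nanog stood at 0.03 on Dox without A-MYB (interaction -1.02), and Sox2 at 0.18 (interaction -1.05). Dppa3 rose alike in size, 1.53 and 1.52. Of 24 retrovirus silencing genes 14 had a negative interaction and none a positive one, but with total counts 11 were negative and 3 positive. Over all genes tested the interaction was negative for 24.5% and positive for 16.4%. Of 345 Zfp genes 135 rose and 5 fell on Dox without A-MYB, and the interaction was negative for 122 and positive for 27 (93 and 52 with total counts). Tet1 rose by 0.59 without A-MYB and fell with it (interaction -1.52).

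**Figure D5:**
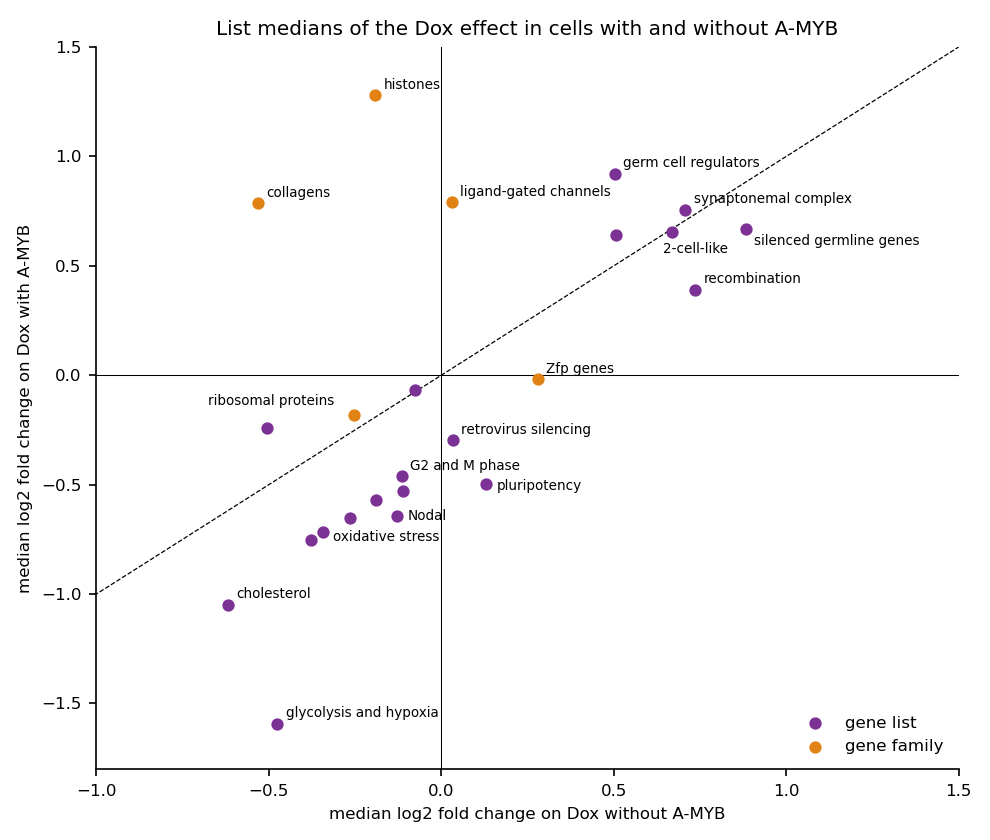
Median log2 fold change on Dox of each list (purple) and family (orange), without A-MYB on the x axis and with A-MYB on the y axis. Points on the dashed line have equal medians, as the 2-cell-like list nearly has (0.67 and 0.66), while histone genes (-0.19 and 1.28) lie far above it and glycolysis genes (-0.48 and -1.59) far below.

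In pachytene spermatocytes, H3K27ac, a histone mark of active promoters and enhancers, was present in 4046 regions of both wild-type peak lists that overlapped no peak of either A-myb mutant list. Such a region lay within 10 kb of 481 of 14595 placed tested genes (3.30%), of 88 of the 1769 placed genes that rose at least 2-fold (4.97%), of 32 of the 785 that rose at least 4-fold (4.08%), of 146 of all 4151 higher genes (3.52%), of 225 of the 5998 genes that did not pass (3.75%) and of 110 of the 4446 lower genes (2.47%). The share of all higher genes thus lay below that of genes that did not pass. No test was made, and the median gene span was 23.9 kb for the genes that rose at least 2-fold and 22.4 kb over all. Within 50 kb the shares were 9.50% for genes that rose at least 2-fold, 7.47% for all higher genes, 8.15% for genes that did not pass and 7.57% over all. Tdrd9 is one of these genes, chosen after its values were seen: the region chr12:112009756-112010677, with a fold of 3.92 in the authors' deposited table, lies inside the gene. Genes beside strong responders were set against genes under the same exclusion. Of 2408 genes within 100 kb of a gene at least 4-fold higher, and not themselves that much higher, 28.7% were higher and 27% lower. Over all 13810 placed genes that were not 4-fold higher, these shares were 24.4% and 32.2%. The median level in A-MYB cells was 24 and 24.2 CPM in these sets, and the difference in shares was not tested.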

How the data were processed

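The authors deposited unnormalized read counts per gene symbol for 8 ES cell libraries. Rows for reads assigned to no gene (7.28% to 9.43% under "no feature") were left out. According to the submitters' processing notes, tools were HISAT2 2.1.0 and HTSeq, bcl2fastq 2.20.0, Bowtie2 2.3.3.1 and MACS 1.4.2, with mm10. How HTSeq treated strand was not stated in those notes, so overlapping and antisense genes are uncertain. The deposited H3K27ac peak lists give tag counts, a score and a fold (a ratio to background) per the file headers, and positions in mm10; the regions used lie in both wild-type lists (overlap of at least 1 base) and in no mutant list, with 21269 to 29042 peaks per list. Their distance was taken from the gene span and not, as first written down, from the gene start.

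Of 23420 genes, 18917 had a read and 14664 passed filterByExpr. edgeR 4.0.16 (limma 3.58.1, R 4.3.3) fitted all 8 libraries with TMM scaling, glmQLFit (robust) and 1 coefficient per group (4 residual degrees of freedom), and glmQLFTest was two-sided with Benjamini-Hochberg adjustment over 14664 genes at 0.05. SE is the absolute log2 fold change over the root of F. Gene counts per library ran from 26995317 to 33771487, and replicates differed by more than sampling noise (chi-square per degree of freedom 5.41 to 13.7). The code was tested on simulated data. Floors of 3 counts cover counting error only.

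Members and lists were chosen with earlier results of these data known, and no list was tested. Named genes are the 15 largest increases and 15 largest decreases among passing genes with separated groups and a mean log2 CPM not below 0, the 8 largest interactions each way under the same limits, the 10 passing genes of highest level, Mybl1, up to 4 members per list and 3 per family with the smallest p, and the 5 highest genes among those at 0 in 1 group. Other list members are given by their change, and a few members are not reported here. Positions are from RefSeq, GRCm38.p6; 99.5% of tested genes were placed, and promoters matched 73.1% of them by symbol. Alternatives were DESeq2 1.42.0, other scalings and filters, leaving out each library, a replicate block and the 4 libraries alone.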

Additional observations from a re-analysis of the deposited data

Results flagged for a closer look

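The Dox effect differed between cells with and without A-MYB in part of the genes, by edgeR's test of the interaction. Over all 14664 genes tested, the interaction was positive for 2410 (16.4%) and negative for 3586 (24.5%). Given here are Mybl1 and the 16 genes chosen for the largest passing interactions, a choice that fixes both their size and their passing. The 8 largest positive differences (log2, adjusted p in brackets) were 3.33 in Car5a (0.00012), 3.32 in Gm10532 (7.95e-05), 3.17 in Grin2c (6.03e-05), 3.12 in Fgd2 (0.000244), 3.04 in Gm973 (0.000118), 3.04 in Madcam1 (2.29e-06), 3.02 in Lipg (5.19e-06) and 2.98 in Alox5 (0.000413). Lipg, an endothelial lipase, had 2.49 and 2.80 CPM in control, 1.24 and 0.928 CPM in Dox, 1.28 and 1.37 CPM in A-MYB and 3.71 and 5.22 CPM in Dox + A-MYB libraries, so it fell with Dox alone and rose with Dox in A-MYB cells. Grin2c, an NMDA receptor subunit, had 0.900 and 0.583, 0.969 and 1.03, 0.475 and 0.334 and 4.67 and 5.07 CPM in the same order.

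The 8 largest negative differences were -2.999 in Mir703 (2.62e-06), -2.88 in Apoo (0.0103), -2.60 in Zfp758 (2.88e-05), -2.54 in Aoc3 (1.87e-07), -2.48 in Snord12 (0.00113), -2.47 in Xlr (0.00132), -2.47 in Kitl (0.00283) and -2.42 in Loxl2 (2.87e-06). Zfp758 had 1.59 and 2.37 CPM in control, 6.66 and 3.95 CPM in Dox, 11.4 and 7.15 CPM in A-MYB and 4.38 and 3.89 CPM in Dox + A-MYB libraries. Xlr did not pass in A-MYB cells (-0.81, adjusted p = 0.078). The interaction of Apoo did not pass without control replicate 1 (-2.46). All these genes except Zfp758, Aoc3 and Loxl2 stayed below 10 CPM in every library. Mybl1 had a difference of -0.59 (0.0183), which did not pass with total counts (-0.42) or without control replicate 2 (-0.44), Dox replicate 1 (-0.54), A-MYB replicate 1 (-0.41) or Dox + A-MYB replicate 2 (-0.45).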

How the results depend on the processing

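The counts of changed genes depended most on the scaling. With total counts as library sizes 2606 genes were lower (4463 in the fit reported) and 327 of them at least 2-fold (542), and the interaction was positive for 3746 (2410) and negative for 2291 (3586). With a CPM of at least 1 in 2 libraries required, 487 genes were at least 4-fold higher (787), since fewer low genes were tested. Leaving out each library in turn gave 3490 to 4231 higher and 3884 to 4461 lower genes, 1551 to 1882 at least 2-fold higher, 503 to 608 at least 2-fold lower, 748 to 904 at least 4-fold higher, and 1734 to 2625 positive and 2815 to 3539 negative interactions. DESeq2's Wald test gave 3813 higher and 4200 lower genes. Same-numbered libraries showed no strong shared deviation (correlations -0.03 to 0.08, the largest between A-MYB and Dox + A-MYB). The labels do not say whether the numbers pair the samples. With a replicate block 4236 genes were higher and 4567 lower. Of 321 results of named genes, none changed direction with a call, and 20 of these results crossed the threshold under at least 1 of these settings. Of 72 list and family counts, 41 of 1080 values moved by over 1.5 times, 21 of them with total counts. With a fold of at least 10 required, no wild-type-only H3K27ac region near a tested gene was left. Depth limits the low genes: below 1.47 CPM, 1214 of the 1243 increases and all 70 decreases called were at least 2-fold, so smaller changes were seldom detectable there.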

Other observations

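The share of higher genes was lowest on the X chromosome among chromosomes with more than 7 tested genes. Of 533 tested X-linked genes 108 were higher (20.3%) and 189 lower (35.5%), with a median log2 change of -0.16. Chromosome 18 had the same share of lower genes (35.5%) and a median of -0.05, and the share of higher genes on the autosomes ran from 23.8% on chromosome 10 to 34.3% on chromosome 8. On Dox without A-MYB the median of the X-linked genes was 0.06. No test of the chromosomes was made.

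Of 15 serine and one-carbon metabolism genes 11 fell and none rose (median -0.48), and of 20 nucleotide synthesis genes 14 fell and 3 rose (median -0.36). With total counts these were 8 lower and 2 higher, and 10 lower and 5 higher. The highest level group, where 60.6% of all genes fell, held 9 of the 15 and 16 of the 20 genes. For the count of 0, no member was higher at an unadjusted p under 0.05 in edgeR or by DESeq2. Among 76 mitochondrial ribosomal protein genes 22 rose and 19 fell (median 0.03), but with total counts 48 rose and 3 fell (median 0.24). Among 37 proteasome subunit genes 21 fell (56.8%) and 4 rose (median -0.20, which turns positive with total counts). Of these 37, 32 lay in the highest level group, whose 60.6% of lower genes is near the share of the family. Lysosomal genes included members that rose, with Hexa at 1.52 and Mcoln1 at 1.32, while of 22 autophagy and lysosome genes 6 rose and 6 fell, and with total counts 11 rose and 5 fell, with the median turning from -0.01 to 0.20.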
